A study of Mus musculus with 6 samples.

Results

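WNT genes were examined in whole kidneys of 2 groups of mice from a study of renal fibrosis induced by TGF-β1. The members were the genes whose symbol is Wnt, Fzd, Sfrp or Dkk with a number, and Frzb, Wif1, Lrp5, Lrp6, Ctnnb1, Axin1, Axin2, Lef1, Tcf7, Lgr4, Rspo1 and Rspo3. The rule used symbols and no measured value, and it found 49 of the 20416 genes on the array. They comprised 19 ligands, 12 receptors and co-receptors, 10 secreted inhibitors, 3 genes of the R-spondin branch, 2 cytoplasmic genes, and 3 nuclear factors or feedback genes. The group called B6-TGFbeta in the labels (replicates 1, 2 and 3, genotype entry B6-TGFß with the word WT) was set against CBAxB6-TGFbeta (replicates 4, 5 and 6, genotype entry CBAxB6-TGFß with the word KO). B6 is the C57BL/6 inbred strain and CBAxB6 a cross of CBA with it, and no deleted gene is named. The series sets the strains apart by their susceptibility to fibrosis. Both groups carry TGFbeta in their labels, and fibrosis was not measured in the single kidneys here. No mice without TGF-β1 were compared, so a strain difference of the unchallenged kidney and a difference in the reaction to TGF-β1 cannot be told apart. The labels say that the mice were littermates of matched age and sex. The ages, the sexes and the promoter that drives TGF-β1 do not appear in the sources used here. Nothing states that each array is a separate animal, so the p-values measure the spread between these arrays.

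WNT proteins are lipid-modified secreted ligands that bind a frizzled receptor together with the co-receptor LRP5 or LRP6. In the canonical branch this stops the destruction complex built on axin from degrading β-catenin, which then acts in the nucleus with TCF and LEF factors. Secreted frizzled-related proteins and WIF1 bind the ligands outside the cell, and the Dickkopf proteins DKK1, DKK2 and DKK4 bind LRP5 and LRP6. R-spondins acting through LGR4 keep frizzled receptors on the surface. Wnt9b and Wnt4 act in turn in the formation of nephrons, and WNT signalling is known to return in injured and scarring kidneys.

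Among the 49 members, 1 was higher in CBAxB6-TGFbeta (Frzb) and 3 were lower (Sfrp2, Dkk2 and Fzd8) at an adjusted p under 0.05 in limma with Benjamini-Hochberg adjustment over all genes. These 4 genes made up 8.16% of the members, against 7.65% of all genes that passed (3.08% higher and 4.57% lower), so the share was near the background. Frzb, Sfrp2 and Dkk2 encode secreted inhibitors, of which 1 was thus higher and 2 were lower, and Fzd8 encodes a receptor. No ligand passed, and neither did β-catenin, axin or the feedback gene Axin2. The median log2 difference (CBAxB6-TGFbeta minus B6-TGFbeta) of the members was -0.0043, beside 0.02 over all genes. In 42 of 49 members (85.7%) the log2 difference was under 0.25 in size, as it was in 74.7% of all genes. The 3 arrays of 1 group lay wholly above or below those of the other in 9 members (18.4%), and in 26.8% of all genes. An unadjusted p under 0.05 was found for 7 members, and for 21.5% of all genes.

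**Figure D1:**
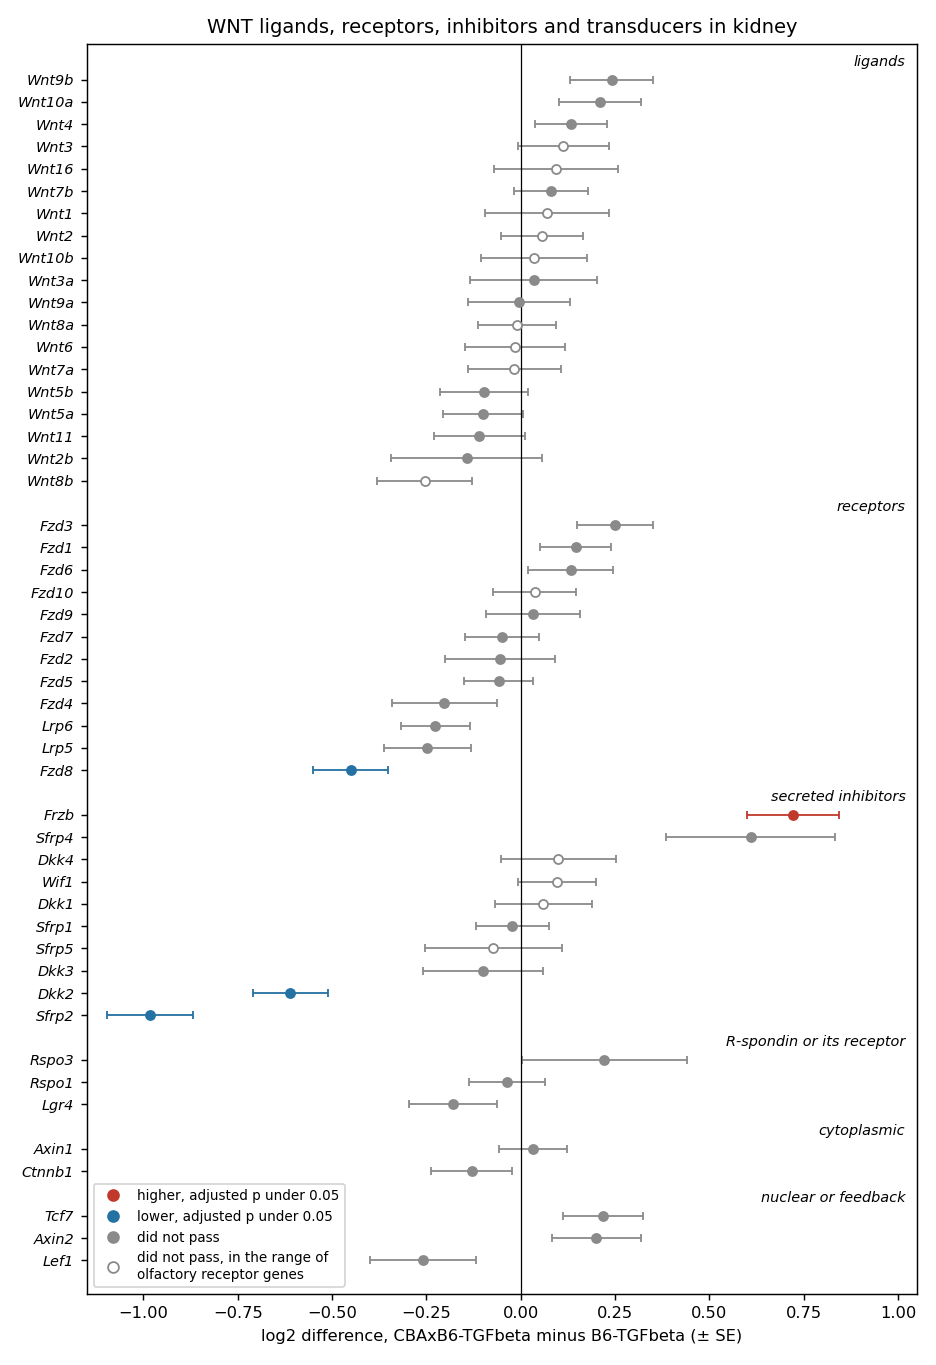
Log2 difference of each of the 49 members between CBAxB6-TGFbeta and B6-TGFbeta (point) with its standard error (bar), ordered within each role, from 3 arrays a group. Frzb lies to the right and Sfrp2, Dkk2 and Fzd8 lie to the left, while the ligands stay between -0.25 and 0.24.

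Values here are log2 intensities of genes, each combined from the rows (exon probe sets) of the array that carry only that symbol. The members had 1 to 25 rows each, with a median of 6 and 385 in all. Intensities of different genes cannot be ranked against each other, because probes differ in brightness. As a guide to dim signals, the 979 olfactory receptor genes, a sensory family with no main role in kidney, had a 95th percentile of 6.02, and 14 members lay at or below it in both groups. Array medians ran from 7.27 to 7.34.

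Markers of kidney cell types differed between the groups, and these values stand beside every result that follows. Of 12 proximal tubule markers 11 were lower, and the mean log2 level of the list was 11.35 to 11.51 in B6-TGFbeta and 9.84 to 10.39 in CBAxB6-TGFbeta. For the loop of Henle and distal tubule 8 of 10 were lower (10.46 to 10.63 against 9.25 to 9.76), for the collecting duct 7 of 11 (8.47 to 8.59 against 7.84 to 7.96), for podocytes 3 of 6 (8.35 to 8.49 against 8.05 to 8.27) and for endothelium 4 of 10 (9.07 to 9.15 against 8.67 to 8.76). Of 11 macrophage and dendritic cell markers 9 were higher (7.15 to 7.43 against 8.20 to 8.82), as were 8 of 10 tubular injury markers (7.89 to 8.10 against 9.63 to 10.12). Of 12 fibroblast and pericyte markers 3 were higher (8.40 to 8.64 against 8.87 to 9.10), and 1 of 8 smooth muscle and myofibroblast markers was (7.86 to 8.04 against 8.12 to 8.51). No T and B cell marker passed (list means of 5.60 to 5.65 against 5.61 to 5.79), nor did any urothelial marker. In bulk tissue, fewer cells of a type and less RNA per cell cannot be told apart, and the part of these shifts in the results was not tested. B6-TGFbeta replicate 2 also stood apart in the means of the adrenal gland list (8.20, with 6.36 in replicate 1, 5.58 in replicate 3 and 5.50 to 5.58 in CBAxB6-TGFbeta) and of the fat list (8.08, against 5.95 to 6.67 on the other 5 arrays). Differences against replicate 3 alone are therefore given for the members that passed.

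Sfrp2, a secreted frizzled-related protein that binds WNT ligands, showed the largest difference of any member. Its log2 intensity was 9.85, 9.95 and 9.82 in B6-TGFbeta replicates 1, 2 and 3, and 8.71, 8.89 and 9.08 in CBAxB6-TGFbeta replicates 4, 5 and 6. All CBAxB6-TGFbeta arrays were low, and the gap between the groups was wider than either group. The means were 9.87 ± 0.067 and 8.89 ± 0.18 (SD, n = 3 each), which differed on the log2 scale by -0.98 (SE 0.11, limma adjusted p = 0.00154) or 1.98-fold lower in CBAxB6-TGFbeta. All 4 rows of the gene were lower, by -0.13, -1.43, -0.88 and -0.96. With each array left out and gene values computed anew, Sfrp2 passed without replicate 6 (limma adjusted p = 0.0217) and missed the threshold without replicates 1, 2, 3, 4 or 5 (0.0630, 0.0512, 0.0626, 0.0516 and 0.0912), while the log2 difference stayed between -1.04 and -0.83. With the gene values of all 6 arrays kept, it passed in each of the 6 fits.

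Dkk2, a Dickkopf protein that binds LRP5 and LRP6 and can inhibit or activate the pathway depending on the setting, was also lower. Its values were 10.26, 10.23 and 10.23 in B6-TGFbeta and 9.49, 9.68 and 9.74 in CBAxB6-TGFbeta. The B6-TGFbeta arrays were nearly equal, and every CBAxB6-TGFbeta array lay below them. The means were 10.24 ± 0.018 and 9.63 ± 0.13 (SD, n = 3 each), with a log2 difference of -0.61 (SE 0.10, limma adjusted p = 0.00801), or 1.53-fold lower. All 4 rows were lower, from -0.73 to -0.32. The brightest row alone gave -0.58 and missed the threshold (limma adjusted p = 0.0520). When gene values were computed anew, Dkk2 passed without replicate 4 or 6 and missed without replicates 1, 2, 3 or 5 (limma adjusted p = 0.105, 0.0837, 0.0968 and 0.0764), and it passed in all 6 fits with the gene values kept.

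Frzb, which encodes another secreted frizzled-related protein (sFRP3), was the only member to pass upwards. It stood at 8.41, 8.77 and 8.50 in B6-TGFbeta and at 9.41, 9.16 and 9.28 in CBAxB6-TGFbeta. The lowest CBAxB6-TGFbeta array was above the highest B6-TGFbeta array. The means were 8.56 ± 0.19 and 9.28 ± 0.13 (SD, n = 3 each), which differed on the log2 scale by 0.72 (SE 0.12, limma adjusted p = 0.00926) or 1.65-fold higher. Of its 10 rows 9 were higher, the largest by 1.19, and 1 was lower by -0.33. The brightest row gave 1.00 (limma adjusted p = 0.0140). With gene values computed anew, Frzb missed the threshold whichever array was left out (limma adjusted p from 0.0603 to 0.154), and with values kept it missed it without replicate 1 (0.0544).

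Fzd8, a frizzled receptor, was measured by 1 row. Sequence differences between the strains under the rows were not examined, for Fzd8 or any other gene. Its values were 6.42, 6.43 and 6.60 in B6-TGFbeta and 6.08, 6.06 and 5.96 in CBAxB6-TGFbeta. The groups did not overlap, but the CBAxB6-TGFbeta mean of 6.03 lay just above the 95th percentile of the olfactory receptor genes. The log2 difference was -0.45 (SE 0.099, limma adjusted p = 0.0267), 1.37-fold lower. Fzd8 missed the threshold without any 1 array when gene values were computed anew (limma adjusted p from 0.0728 to 0.129), and with values kept it passed only without replicate 4 (0.0427).

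When B6-TGFbeta was reduced to replicate 3 and gene values were computed anew, the log2 differences were -0.84 for Sfrp2, -0.55 for Dkk2, 0.78 for Frzb and -0.57 for Fzd8. None passed in that limma fit (adjusted p = 0.116, 0.283, 0.149 and 0.237), in which the lone array is assumed to vary like the other group. Replicate 3 had the lowest adrenal and fat marker means of its group. All 4 kept their direction against it, but for each gene its value already lay beyond those of all CBAxB6-TGFbeta arrays. A change of direction was thus hardly possible, and the part of adrenal and fat RNA in these differences was not tested. Without limma's moderation of the variances across genes, none of the 4 passed either (adjusted p = 0.0773, 0.0872, 0.128 and 0.107).

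**Figure D2:**
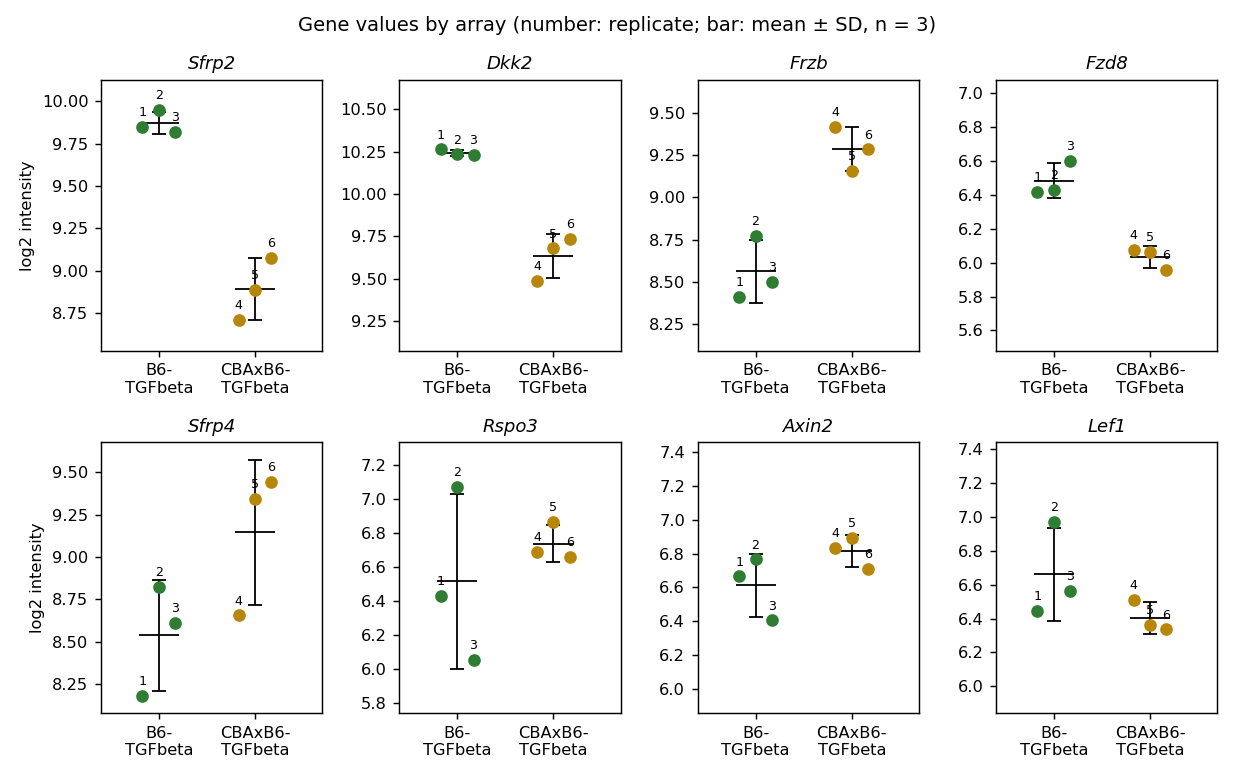
Log2 intensity (vertical axis) of 8 members on each array, numbered by replicate, with the mean and SD of each group of 3. Sfrp2, Dkk2, Frzb and Fzd8 separate the groups, while Sfrp4, Rspo3, Axin2 and Lef1 overlap.

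The sequences upstream of the passing inhibitors are shown because these 3 genes are the secreted inhibitors among the members that passed. They are the 250 bases before the start of each gene in RefSeq (GRCm38.p6, from C57BL/6J), written in the direction of the gene, and CBA sequence was not used here. Dkk2 lies at chr3:132085042-132085291 (+ strand), Frzb at chr2:80447397-80447646 (- strand) and Sfrp2 at chr3:83766071-83766320 (+ strand). Capitals mark matches on either strand to any of 7 motifs, which do not overlap one another here. The TCF/LEF motifs searched were CTTTGAT and its variant CTTTGAA and another variant CTTTGTT. The SMAD motif was CAGAC. The EGR motifs were GCGGGGGCG and the variant GCGTGGGCG. The TATA box was TATAAA.
Dkk2: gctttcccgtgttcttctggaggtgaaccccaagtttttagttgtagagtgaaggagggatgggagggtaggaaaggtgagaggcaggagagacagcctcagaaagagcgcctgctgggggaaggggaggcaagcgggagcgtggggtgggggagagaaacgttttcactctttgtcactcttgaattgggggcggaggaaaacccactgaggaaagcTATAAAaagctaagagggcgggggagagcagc
Frzb: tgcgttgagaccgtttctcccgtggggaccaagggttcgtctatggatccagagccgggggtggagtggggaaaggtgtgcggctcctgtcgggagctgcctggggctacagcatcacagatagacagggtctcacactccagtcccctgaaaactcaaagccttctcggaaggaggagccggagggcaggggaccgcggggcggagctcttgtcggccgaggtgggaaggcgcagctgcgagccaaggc
Sfrp2: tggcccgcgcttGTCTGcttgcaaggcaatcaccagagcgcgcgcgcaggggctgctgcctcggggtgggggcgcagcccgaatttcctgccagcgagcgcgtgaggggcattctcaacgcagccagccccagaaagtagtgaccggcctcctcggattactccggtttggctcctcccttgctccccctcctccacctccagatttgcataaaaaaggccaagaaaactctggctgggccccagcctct

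The Dkk2 window held 1 TATA box, which begins 32 bases before the start, and the Sfrp2 window held 1 SMAD motif on the reverse strand, which begins 238 bases before it. The Frzb window held none of these motifs. Of all 32851 windows of this length in the table, 12.4% held the TATA box and 42.2% the SMAD motif, while the TCF/LEF motifs were in 3.21%, 4.46% and 5.03% and the EGR motifs in 2.57% and 0.536%, in the order given. None of the 3 windows held a TCF/LEF or EGR motif as spelled here. GC content was 55.6% for Dkk2, 64.4% for Frzb and 63.6% for Sfrp2, beside a median of 52.4% over all windows. The table held 33 of the 49 members.

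Of the other secreted inhibitors, Sfrp4 had the next largest difference and did not pass. Sfrp4, a frizzled-related protein of mesenchymal cells, stood at 8.18, 8.82 and 8.61 in B6-TGFbeta and at 8.66, 9.34 and 9.44 in CBAxB6-TGFbeta. Replicates 5 and 6 were high, and replicate 4 lay within the B6-TGFbeta range. The log2 difference was 0.61 (SE 0.22, limma adjusted p = 0.147), with all 7 rows positive, from 0.27 to 1.08. It was 0.87 without replicate 4 when gene values were computed anew (limma adjusted p = 0.105) and 0.86 with values kept, where it passed (0.0247). Sfrp1, the frizzled-related protein whose values were closest between the groups, was at 10.65 ± 0.089 and 10.63 ± 0.063 (SD, n = 3 each), with a log2 difference of -0.02 and a 95% interval of -0.24 to 0.20. Dkk3, counted as an inhibitor by its symbol, had a log2 difference of -0.10 (95% interval -0.46 to 0.26). Of its 9 rows 7 were negative, and the brightest gave 0.41. Dkk1, Dkk4, Sfrp5 and Wif1, which binds ligands directly, were all dim, with log2 differences from -0.07 to 0.10.

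No ligand passed in limma, and none had an unadjusted p under 0.05. Of the 19 log2 differences 10 were positive and 9 negative, with a median of 0.03. Wnt1, Wnt2, Wnt3, Wnt6, Wnt7a, Wnt8a, Wnt8b, Wnt10b and Wnt16, 9 of the 19, were dim in both groups. Wnt9b, which acts from the ureteric bud in nephron formation, had the largest positive difference, with 6.75, 6.83 and 6.61 in B6-TGFbeta and 6.82, 7.01 and 7.09 in CBAxB6-TGFbeta. Its log2 difference was 0.24 (SE 0.11, 95% interval -0.0089 to 0.49, limma adjusted p = 0.249). Of its 5 rows 2 were positive, and the brightest row gave -0.19. Wnt8b had the largest negative one (-0.25, SE 0.13, limma adjusted p = 0.287) and was dim, although its groups did not overlap.

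Wnt4 is the ligand with a known part in nephron formation and in kidney injury. It was at 6.14 ± 0.035 in B6-TGFbeta and 6.28 ± 0.1 in CBAxB6-TGFbeta (SD, n = 3 each). Its log2 difference was 0.13 (95% interval -0.083 to 0.35). Of its 6 rows 3 were positive, and the brightest gave -0.07. Wnt5a, the main non-canonical ligand, was at 7.64 ± 0.076 and 7.54 ± 0.14 (SD, n = 3 each), and its log2 difference was -0.10 (95% interval -0.34 to 0.14). Its 9 rows ran from -0.93 to 0.27. Wnt7b, a ligand of the collecting duct, had a log2 difference of 0.08 (95% interval -0.14 to 0.30) and Wnt10a 0.21 (95% interval -0.035 to 0.46). All 5 rows of Wnt10a were positive. Wnt3a, Wnt5b, Wnt9a and Wnt11 had log2 differences of 0.03, -0.10, -0.0043 and -0.11. Wnt2b was the least even ligand above the dim range, with 6.75, 7.35 and 7.06 in B6-TGFbeta and 7.06, 7.18 and 6.50 in CBAxB6-TGFbeta.

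Besides Fzd8, no receptor passed. Both LRP co-receptors lay lower in all CBAxB6-TGFbeta arrays. Lrp6 stood at 10.37, 10.27 and 10.36 against 10.12, 10.13 and 10.08, a log2 difference of -0.23 (SE 0.09, limma adjusted p = 0.184). Its 25 rows ran from -1.50 to 0.23, of which 20 were negative, and the brightest gave 0.08. Lrp5 stood at 8.66, 8.70 and 8.62 against 8.61, 8.41 and 8.22, a log2 difference of -0.25 (SE 0.12, limma adjusted p = 0.261), with 18 of 24 rows negative. Neither difference passed, and the proximal and distal tubule markers listed above were lower on the same arrays, whose part in these values was not tested.

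Fzd3, a receptor also used in planar polarity, had the largest positive difference of the receptors, at 8.06, 7.92 and 7.95 against 8.24, 8.33 and 8.10. Its groups did not overlap, and its log2 difference of 0.25 (SE 0.10) had a limma adjusted p = 0.191. Fzd1 also showed groups that did not overlap, with a log2 difference of 0.15 (95% interval -0.065 to 0.36). Only 1 of its 3 rows was positive, the brightest, at 0.38. The log2 differences of Fzd2, Fzd4, Fzd5, Fzd6, Fzd7, Fzd9 and Fzd10 ran from -0.20 to 0.13. Fzd4, which serves the endothelium as receptor for norrin, had the lowest of these (-0.20, SE 0.14, 95% interval -0.52 to 0.11).

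No gene of the R-spondin branch passed in limma, and none had an unadjusted p under 0.05. Rspo3, which is known from stromal and vascular cells and the adrenal capsule, varied most among the B6-TGFbeta arrays, at 6.43, 7.07 and 6.05, while CBAxB6-TGFbeta arrays stood at 6.69, 6.87 and 6.66. The highest B6-TGFbeta value was on replicate 2, the array with the highest adrenal and fat marker means. The log2 difference was 0.22 with all arrays (SE 0.22), 0.47 without replicate 2 and -0.0029 without replicate 3, with gene values computed anew, and it did not pass in limma in any of these (adjusted p = 0.629, 0.188 and 1.00). The part of the adrenal and fat RNA in this value was not tested. Rspo1 had a log2 difference of -0.04 (95% interval -0.26 to 0.19). The receptor gene Lgr4 was at 10.60, 10.36 and 10.40 against 10.31, 10.10 and 10.41, a log2 difference of -0.18 (95% interval -0.44 to 0.085) with 15 of 17 rows negative.

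No cytoplasmic or nuclear member passed, and none had an unadjusted p under 0.05. Ctnnb1, which encodes β-catenin, was at 10.67 ± 0.12 and 10.54 ± 0.12 (SD, n = 3 each), and its log2 difference was -0.13, with a 95% interval of -0.37 to 0.11. Axin1, the scaffold of the destruction complex, had a log2 difference of 0.03 (95% interval -0.17 to 0.24). β-catenin is controlled mainly by protein turnover, which these arrays do not measure.

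Axin2, a direct target of β-catenin that feeds back on it, stood at 6.67, 6.77 and 6.41 in B6-TGFbeta and 6.83, 6.90 and 6.71 in CBAxB6-TGFbeta. The groups overlapped, the log2 difference was 0.20 (SE 0.12, 95% interval -0.065 to 0.47, limma adjusted p = 0.379), and 10 of 14 rows were positive. Tcf7, a nuclear partner of β-catenin and a T cell factor, had a log2 difference of 0.22 (SE 0.11, limma adjusted p = 0.284). Its brightest row gave 0.90 and its 11 rows ran from -0.47 to 0.90. Lef1, the related factor, had a log2 difference of -0.26 (SE 0.14, limma adjusted p = 0.338), and its highest value, 6.97, was on B6-TGFbeta replicate 2. Without that array it was -0.01 with gene values computed anew and -0.10 with values kept. Rows of Lef1 ran from -1.12 to 0.75, and the cause of such spread among rows was not tested.

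**Figure D3:**
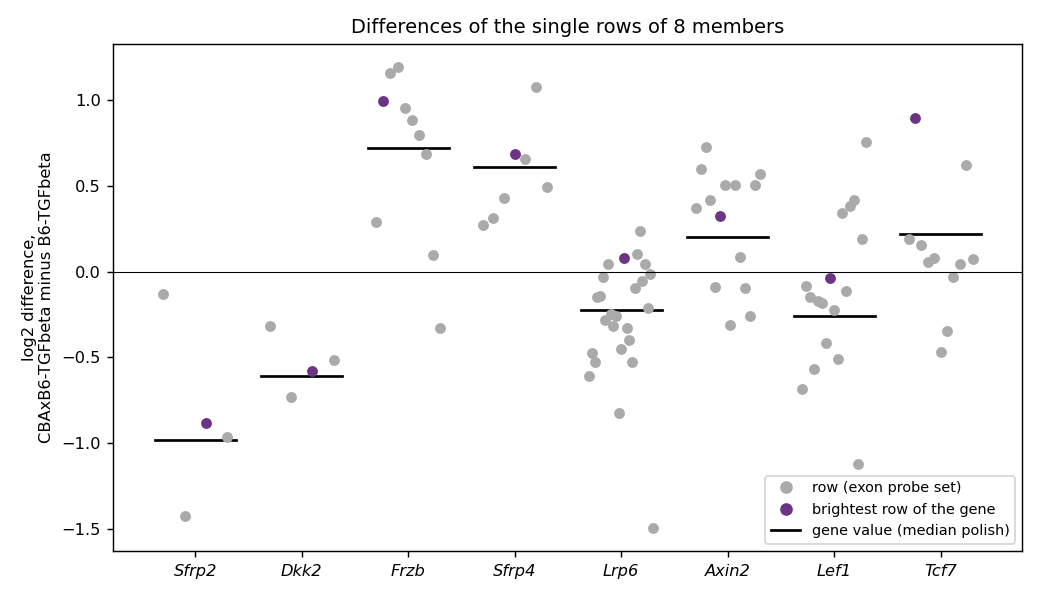
Log2 difference of every row (exon probe set, point) of 8 members, with the brightest row of each gene in purple and the gene value as a line. The rows of Sfrp2, Dkk2 and Sfrp4 all lie on 1 side of 0, whereas those of Lrp6, Axin2, Lef1 and Tcf7 fall on both, and 1 Lrp6 row stands alone at -1.50.

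Around the members, 7 lists were chosen by role, with earlier results of these data known, and 6 genes are on 2 lists. The lists held 114 further genes of the pathway that were measured. Of these, 5 were higher and 2 lower in limma, which is 6.14% beside 7.65% of all genes. Among 10 other genes listed as WNT inhibitors, which include the membrane protein Tpbg and the cytoplasmic proteins Dact1 and Dact2, 1 was lower and 1 higher. Sostdc1, an antagonist of WNT and BMP signalling made in the distal nephron, stood at 11.20, 10.98 and 10.99 in B6-TGFbeta and 10.04, 10.15 and 10.28 in CBAxB6-TGFbeta. All CBAxB6-TGFbeta arrays were low, with a log2 difference of -0.90 (SE 0.11, limma adjusted p = 0.00198), or 1.86-fold. The distal tubule markers were lower on the same arrays. Its brightest row gave -0.71 and did not pass (limma adjusted p = 0.219). Tpbg, a membrane protein that dampens canonical signalling, was at 6.36, 6.28 and 6.35 against 6.85, 6.91 and 6.56, a log2 difference of 0.44 (SE 0.11, limma adjusted p = 0.0471). With an array left out and gene values kept, Sostdc1 passed in all 6 fits and Tpbg only without replicate 6. With gene values computed anew, Sostdc1 missed without replicates 1, 2, 3 or 5 (limma adjusted p = 0.0771, 0.0530, 0.0644 and 0.0662), and Tpbg missed without any of replicates 1 to 5 (0.105 to 0.263).

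In the list of 7 genes of WNT release and transport, Sulf1, a sulfatase that trims heparan sulfate and so alters ligand binding, was higher, and 6 genes did not pass. Sulf1 values were 6.75, 7.56 and 7.18 against 8.93, 8.03 and 8.10, a log2 difference of 1.19 (SE 0.26, limma adjusted p = 0.0268). The acyltransferase gene Porcn, which adds lipid to the ligands, had a log2 difference of -0.38 (SE 0.14) and Gpr177, the carrier now called Wls, -0.06 (SE 0.12). The list of 12 other receptors and co-receptors also holds the R-spondin genes Rspo2 and Rspo4, and Rnf43 and Znrf3, which are not receptors. None of the 12 passed, and 1 (Znrf3) had an unadjusted p under 0.05. Among 24 planar polarity and non-canonical genes, the cadherin gene Celsr2 was lower (7.83, 7.65 and 7.76 against 7.29, 7.26 and 6.84, log2 difference -0.61, SE 0.13, limma adjusted p = 0.0264) and 23 did not pass. Its brightest row gave 0.03. With gene values kept, Sulf1 missed the threshold without replicate 1 or 3 (limma adjusted p = 0.110 and 0.0944), as did Celsr2 without replicate 1, 3 or 5 (0.115, 0.0913 and 0.0504). With gene values computed anew, both missed it whichever array was left out (Sulf1 0.115 to 0.353, Celsr2 0.0615 to 0.350).

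None of 23 destruction complex and cytoplasmic genes passed, with 7 at an unadjusted p under 0.05, and none of 19 nuclear partners, with 3. These counts are to be read against the 21.5% of all genes with such a p. Gsk3b and Apc, core parts of the complex, had 95% intervals of the log2 difference of -0.18 to 0.24 and -0.23 to 0.23. Over the 23 destruction complex and cytoplasmic genes, 13 log2 differences were positive and 10 negative. They ran from -0.34 for Btrc to 0.62 for Nkd2 (limma adjusted p = 0.0705 and 0.0989). Tcf7l2, another TCF factor, was at 9.27, 9.48 and 9.46 against 9.01, 9.06 and 8.99, a log2 difference of -0.38 (SE 0.099) that just missed the threshold (limma adjusted p = 0.0501).

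Among 25 genes known as β-catenin targets, Cd44, Mmp7 and S100a4 were higher and the other 22 missed the threshold. Those that passed made up 12% of the list, beside 7.65% of all genes (3.08% higher). The median of the list was 0.13 on the log2 scale, beside 0.02 over all genes. Of its 25 genes 12 had an unadjusted p under 0.05, beside 21.5% of all genes. The groups lay apart upwards in 12 of the 25 and downwards in 3, beside 26.8% of all genes in either direction. Because the list was chosen with earlier results of these data known, these shares are no test of the pathway. Cd44, a hyaluronan receptor of injured tubules and leukocytes, was at 6.96, 7.19 and 6.93 against 9.31, 8.75 and 8.35, a log2 difference of 1.78 (SE 0.21, limma adjusted p = 0.00169) or 3.43-fold. Mmp7, matrilysin, was at 6.39, 6.29 and 6.24 against 7.34, 6.84 and 6.94, a log2 difference of 0.73 (SE 0.14, limma adjusted p = 0.0137). S100a4, a calcium-binding protein of fibroblasts and leukocytes, was at 6.95, 7.28 and 7.09 against 7.78, 7.46 and 7.58, a log2 difference of 0.50 (SE 0.12, limma adjusted p = 0.0416). On these arrays 9 of 11 macrophage and dendritic cell markers and 8 of 10 injury markers were also higher. With an array left out and gene values kept, Cd44 passed in all 6 fits, Mmp7 missed without replicate 1 or 3 (limma adjusted p = 0.0520 and 0.0634) and S100a4 missed without replicate 1, 3, 4, 5 or 6 (0.0597 to 0.170). With gene values computed anew, Cd44 passed only without replicate 6 (0.0313), and Mmp7 and S100a4 passed in none of the 6 fits. The brightest row of Mmp7 gave 0.36 (limma adjusted p = 0.321).

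Of the 22 listed targets that did not pass, 7 are given here, chosen after their values were seen. These lean to negative differences more than the list of 25 does, in which 18 log2 differences were positive and 7 negative. Nkd1, a feedback inhibitor, had a log2 difference of 0.22 (SE 0.096, limma adjusted p = 0.224), Lgr5 -0.27 (SE 0.23), Notum -0.18 (SE 0.13), Rnf43 -0.02 (SE 0.13) and Znrf3 -0.45 (SE 0.15, limma adjusted p = 0.116). Myc and Ccnd1, which drive cell division, lay on opposite sides of 0, at 0.91 (SE 0.24, limma adjusted p = 0.0527) and -0.52 (SE 0.14, limma adjusted p = 0.0590). Neither passed.

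**Figure D4:**
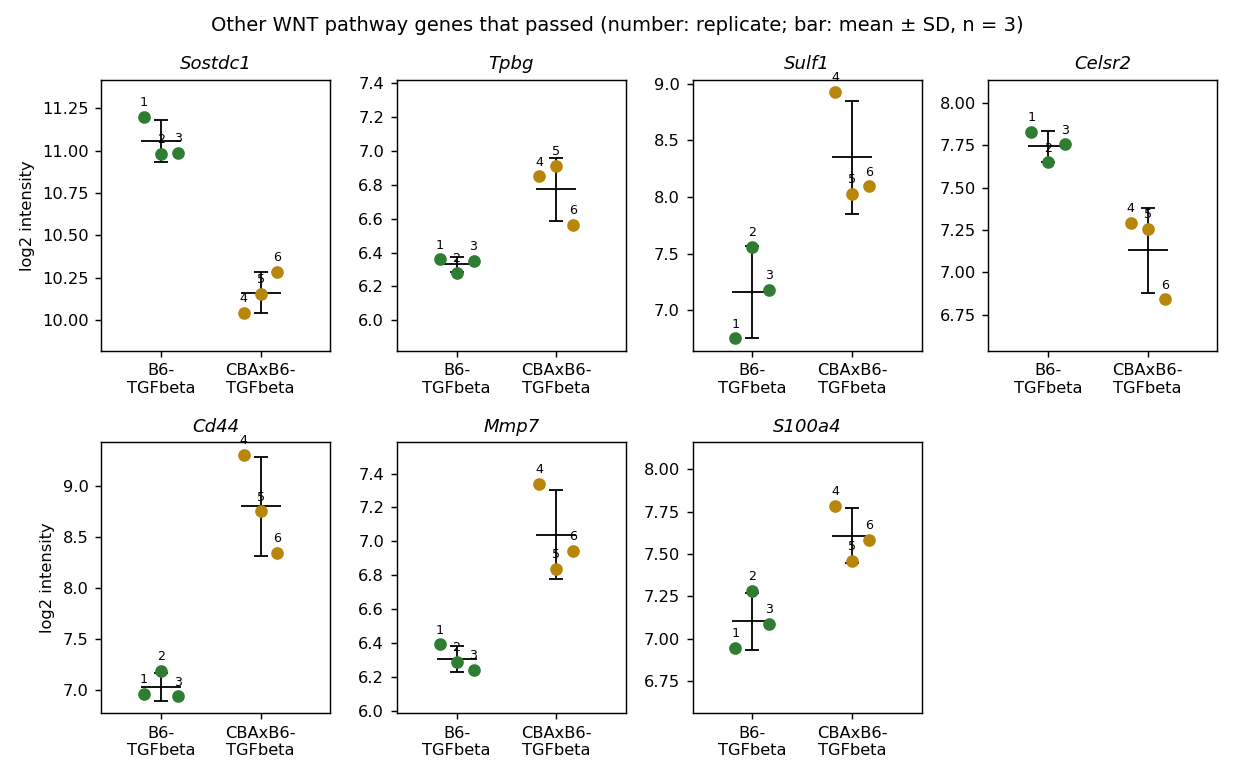
Log2 intensity (vertical axis) of the 7 other pathway genes that passed, on each array, numbered by replicate, with the mean and SD of each group of 3. Sostdc1 and Celsr2 are lower on every CBAxB6-TGFbeta array, and Tpbg, Sulf1, Cd44, Mmp7 and S100a4 are higher.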

How the data were processed

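Kidney RNA of 6 arrays was compared between 2 groups of 3. The authors deposited log2 intensities at the level of exon probe sets. RMA and Partek are named per the submitters' processing notes. Their versions and the genome build are not given in the sources. Of 241576 rows, the 212097 with 1 symbol in the platform annotation gave 20416 genes through median polish, and other rows were left out. No row with several symbols named a member. Differences were fitted over all genes with limma 3.58.1 in R 4.3.3 (1 group term, moderated variances, two-sided, Benjamini-Hochberg adjustment, threshold 0.05), and 95% intervals come from the same fit. The calculation was tested on simulated data.

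Members, lists and alternatives were chosen with earlier results of these data known. The rule for names took the members that passed, those with groups apart and a log2 difference of at least 0.5, the largest and smallest of each role, and the other pathway genes that passed. Others named were chosen after their values were seen. A gene was called dim where both group means lay at or below the 95th percentile of 979 olfactory receptor genes. Array number limits precision. Sequences are from RefSeq GRCm38.p6.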

Additional observations from a re-analysis of the deposited data

How the results depend on the processing

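The labels do not say which arrays, if any, belong together across the groups, so no paired analysis was made. Among 24 alternatives, each fitted with limma, 44 of the 45 members that did not pass stayed so in every fit that held them, Sfrp4 being the exception, and 30 of the 45 changed sign in at least 1. Frzb, Sfrp2, Dkk2 and Fzd8 kept their direction in all 24 and passed in 14, 16, 16 and 9. Their groups did not overlap, so the direction could not change in the fits that used the gene values of the main fit. Fzd8 has 1 row, so other ways of combining rows returned the same difference for it. The count of directions is therefore no measure of how firm these results are. Second quantile normalization and median centring left the counts of members at 1 higher and 3 lower.

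The brightest row of each gene gave 1 lower member, and 3 higher and 0 lower other pathway genes (4 lower at an unadjusted p under 0.05), with Celsr2 at 0.0308. Of all genes 3.02% passed in that fit, against 7.65% with the rows combined. Without moderation of the variances, and with B6-TGFbeta reduced to replicate 3 (gene values computed anew or kept), 0 members and 0 other pathway genes passed, and of all genes 0.309%, 0.196% and 0.22% did. At an unadjusted p under 0.05 there were 3, 2 and 3 higher and 4, 4 and 4 lower members in these 3 fits. For other pathway genes there were 12, 10 and 12 higher and 12, 6 and 8 lower. Other pathway genes numbered 8 higher and 5 lower with the mean of rows, 9 higher and 7 lower with array weights, 4 lower with an intensity trend and 4 lower with the dimmest 25% of genes removed. Of all genes 8.81%, 11.0%, 8.0% and 11.3% passed in these fits. The cause was not tested.

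Leaving out 1 array at a time, 0 to 2 members were higher and 0 to 3 lower, and 0 to 8 other pathway genes were higher and 0 to 6 lower. Over all genes the share that passed ran from 0.279% (without replicate 3, computed anew) to 7.59% (without replicate 6, values kept). Keeping the gene values of the median polish over all 6 arrays, a choice made after seeing the data, gave 2 to 3 lower members, against 0 to 2 with gene values computed anew. Residual SDs under 0.01 made up 1.19% of genes without replicate 1 when values were computed anew and 0.049% when they were kept.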

Other observations

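Of the 14 members in the range of the olfactory receptor genes, 12 (85.7%) had their highest B6-TGFbeta value on replicate 3, as did 59.2% of the 979 olfactory receptor genes. Their median SD was 0.22 in B6-TGFbeta and 0.15 in CBAxB6-TGFbeta, beside 0.10 and 0.13 for the other 35 members.

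The EGR motif GCGGGGGCG, on either strand, was in the 250 bases before the start in 6 of 41 windows of members (14.6%), at Fzd4, Tcf7, Wif1, Wnt2, Wnt3a and Wnt7a, and in 2.57% of all windows. The windows of members had a median GC content of 66.8%, against 52.4% over all, and none of these 6 genes passed between the groups. TCF/LEF motifs were found at Dkk1, Fzd7, Wnt5b and Wnt11, which did not pass either.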
